A study of Rattus norvegicus with 108 samples.

Results

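Oxidative phosphorylation was described here through 82 rows of the gene tables, of 19127 in all, chosen by symbol to stand for its nuclear-encoded subunits. Rows were taken by symbol: Ndufa, Ndufb, Ndufc, Ndufs and Ndufv members for complex I, Sdha to Sdhd for complex II, Uqcr members and Cyc1 for complex III, Cox4i to Cox8 members for complex IV, Atp5 members for complex V, and Cycs for cytochrome c. Complex I held 37 rows, complex II 4, complex III 6, complex IV 16, complex V 18 and cytochrome c 1. Assembly factors named Ndufaf were left out. The choice by symbol does not make every row a subunit. Atp5sl and Atp5s, counted in complex V, have the RefSeq symbols Dmac2 and Dmac2l, and Ndufv3-ps1 and Cox6c-ps1 carry a pseudogene suffix. Rows entered by symbol and not by their values, but the set itself was chosen with earlier results of these data known.

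The cells came from the dorsal (dorDG) and ventral (venDG) dentate gyrus of male Long-Evans rats (from Charles River) that were 2 months old when treatment began. Over 6 weeks they drank water alone (Sham) or water with fluoxetine at 18 mg/kg (FT). The tissue was micropunched and run as 10x 3′ libraries, and each replicate was a pool of animals. The tables held 1289 dorDG cells and 2058 venDG cells, in 5 replicates a group except for dorDG FT, where 4 had cells (no replicate 3). The labels speak of nuclei only, the methods of the study of both cells and nuclei, and neither says which reaction held which.

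Complex I takes electrons from NADH and complex II takes them from succinate, complex III hands them to the small carrier cytochrome c, and complex IV passes them to oxygen, while complex V (ATP synthase) uses the resulting proton gradient to make ATP. Complexes I, III, IV and V join nuclear-encoded subunits with a few encoded in the mitochondrial genome, whereas complex II is nuclear-encoded throughout. In the brain, this system supplies most of the ATP that ion pumping and synaptic transmission use, and several subunits of complexes IV and V exist as tissue-dependent isoforms.

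The promoters of the members are shown first, since the nuclear genes share promoter motifs that the choice of rows did not use. Of the 82 rows, 79 matched a RefSeq gene (62 by symbol and 17 by an older name), and 67 had a 300-base window from 250 bases before to 50 after the start (RefSeq, GRCr8). The motif of NRF1 (nuclear respiratory factor 1, a regulator of respiratory chain genes), GCATGCGC on either strand, stood in 9 of these 67 windows (13.4%) and in 2.61% of all 27457 rat promoter windows. The ETS core CCGGAAG stood in 29.9% of the members' windows and in 9.14% of all windows, and the YY1 motif AAGATGGC in 20.9% and 3.41%. CCAAT was found in 32.8% and 37.6%, and TATAAA in 5.97% and 14.3%. The median GC content was 57% in the members and 52.3% in all windows. The windows with the NRF1 motif belonged to Cycs, Sdhb, Ndufa6, Ndufa11, Uqcrc1, Atp5g2, Atp5i, Atp5l and Atp5o, and 0 of 11 complex IV windows held it. A match is a run of letters, and binding was not measured. 3 windows are printed because the results below return to these genes: Cox4i1, the main isoform of subunit 4 of complex IV (chr19:65630133-65630432, plus strand), Cycs, cytochrome c (chr4:80984718-80985017, minus strand), and Atp5i, the e subunit of ATP synthase (chr14:1464610-1464909, plus strand, RefSeq symbol Atp5me), the member with the highest FT against Sham fold change in dorDG. They run 5′ to 3′ on the strand of the gene, and capitals mark the motifs named above, on either strand.
Cox4i1: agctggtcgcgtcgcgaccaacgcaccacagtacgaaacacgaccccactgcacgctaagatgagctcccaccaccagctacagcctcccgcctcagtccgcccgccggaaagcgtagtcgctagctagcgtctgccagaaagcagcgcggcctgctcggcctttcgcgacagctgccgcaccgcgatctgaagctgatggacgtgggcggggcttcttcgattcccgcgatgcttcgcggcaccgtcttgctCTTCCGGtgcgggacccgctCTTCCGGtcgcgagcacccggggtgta
Cycs: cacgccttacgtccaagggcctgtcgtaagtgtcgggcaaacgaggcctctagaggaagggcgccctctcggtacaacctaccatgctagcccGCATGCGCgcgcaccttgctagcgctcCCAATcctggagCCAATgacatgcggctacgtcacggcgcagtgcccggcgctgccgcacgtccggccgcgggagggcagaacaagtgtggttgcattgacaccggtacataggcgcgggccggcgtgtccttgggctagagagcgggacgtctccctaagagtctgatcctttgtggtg
Atp5i: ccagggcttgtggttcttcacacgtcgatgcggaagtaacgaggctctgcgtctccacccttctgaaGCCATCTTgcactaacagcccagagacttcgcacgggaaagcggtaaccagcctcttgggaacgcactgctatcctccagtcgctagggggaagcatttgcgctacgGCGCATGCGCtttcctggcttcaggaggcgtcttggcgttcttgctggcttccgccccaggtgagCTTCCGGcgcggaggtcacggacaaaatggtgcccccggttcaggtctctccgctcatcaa
Cox4i1 carried the ETS core at 2 places just after the start, Cycs carried 1 NRF1 motif and CCAAT at 2 places, and Atp5i carried the NRF1 motif as an overlapping pair on both strands together with 1 YY1 and 1 ETS match.

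Replicates held 42 to 384 cells and 220162 to 1523537 UMIs (unique molecular identifiers, counted once per captured transcript). Levels below are UMIs per 10000 UMIs of all genes, a share of a library and not a number of molecules per cell. 9 cell barcodes occurred in more than 1 reaction. The share of cells with less than 2% of their UMIs in cytosolic ribosomal protein genes differed between libraries: it was 14.5% to 42.1% in dorDG FT, 31.9% to 72% in dorDG Sham, 16.9% to 50.3% in venDG FT and 18.9% to 61.9% in venDG Sham. Because this share moved with the members, results are also given within cells of at least 2% and within cells under 2%. Counts of members in fits within these classes are given without the share of all genes. They do not show whether the members differ from other genes there. Of the marker lists, the 3 neuronal genes (Snap25, Syt1, Rbfox3), all detected, summed to 4.13 to 8.74 UMIs per 10000 in dorDG FT and 5.68 to 23.8 in dorDG Sham, and 8 of 9 mural (vessel wall) markers to 3.07 to 6.92 and 0.571 to 4.44. From these sums alone, fewer cells of a type and less RNA per cell cannot be told apart. In the authors' dorDG annotation, the mean share of InhibNeuron cells was 4.86% in FT (2.54% to 9.79%) and 17.1% in Sham (0% to 31%). That of Granule was 7.47% and 10.8%, and that of ExcitNeuron 4.27% and 3.54%. Cells named Mossy made up 8.64% (7.69% to 9.16%) and 2.86% (0% to 5.93%). The part of these shares in the marker sums was not tested.

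The members together made up 153 ± 8.1 UMIs per 10000 in dorDG FT (SD, n = 4) and 113 ± 35 in dorDG Sham (n = 5), a ratio of 1.36. The 4 FT replicates lay between 147 and 164. The 5 Sham replicates lay between 68.1 and 162, so the groups overlapped, with Sham replicate 4 inside the FT range and Sham replicate 3 lowest. In venDG, the level was 151 ± 11.9 in FT (n = 5, 135 to 162) and 122 ± 26.4 in Sham (n = 5, 81.6 to 149), a ratio of 1.24, again with overlap. Sham spread more widely than FT in both regions. Replicates 1 and 2 joined 2 reactions of unlike member levels, described below as first and second. In dorDG these held 120 and 23 cells (FT 1), 117 and 80 (FT 2), 98 and 132 (Sham 1) and 61 and 77 (Sham 2). In venDG they held 153 and 74 (FT 1), 207 and 177 (FT 2), 190 and 141 (Sham 1) and 96 and 80 (Sham 2). The part of this mix in the ratios and in the fits below was not tested.

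The ratio of FT to Sham in dorDG was 1.31 for complex I, 1.13 for complex II, 1.28 for complex III, 1.4 for complex IV, 1.44 for complex V and 1.49 for cytochrome c. In venDG it ran from 1.16 for complex II to 1.33 for cytochrome c, with 1.23 for complex I, 1.21 for complex IV and 1.28 for complex V. Complex IV in dorDG, for example, was 47.4 ± 2.02 UMIs per 10000 in FT (44.8 to 49.5) and 33.9 ± 9.78 in Sham (19.2 to 46.3). Complex II was the smallest in amount, at 3.64 ± 0.226 in FT and 3.21 ± 0.41 in Sham. As shares of all oxidative phosphorylation UMIs, complex I took 33.9% to 35.1% over the 4 groups, complex IV 29.8% to 30.9%, complex V 23.2% to 25%, complex III 6.42% to 6.95%, complex II 2.37% to 3% and cytochrome c 1.42% to 1.69%. These sums over members carry no test, because the members were chosen with earlier results known.

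**Figure D1:**
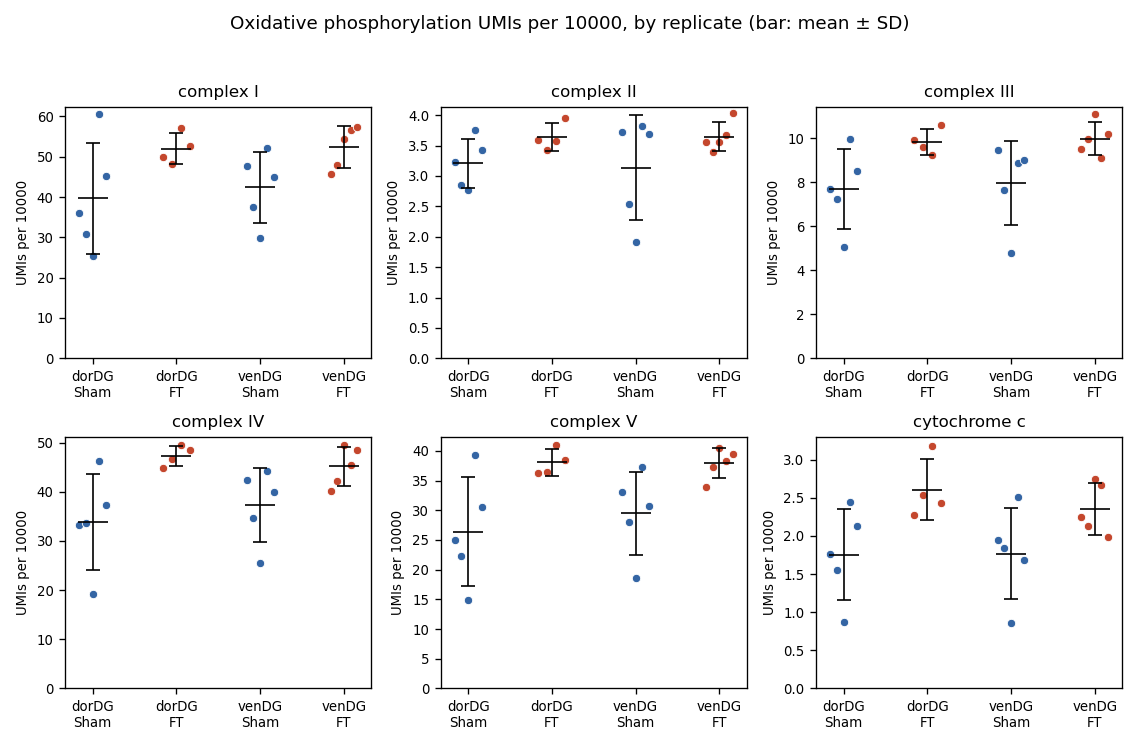
UMIs per 10000 of complexes I to V and cytochrome c in each replicate (points, Sham blue and FT red), with mean ± SD (bars), n = 4 for dorDG FT and 5 otherwise. In dorDG the FT points of complex IV lie between 44.8 and 49.5 and the Sham points between 19.2 and 46.3.

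The same level was computed within the cell classes. In dorDG cells with at least 2% ribosomal UMIs it was 172 ± 5.73 in FT and 155 ± 32.9 in Sham, a ratio of 1.11, and in cells under 2% it was 54.5 ± 3.71 and 46.7 ± 4.26, a ratio of 1.17. In venDG the ratios were 1.17 (176 against 151) and 1.19 (63.1 against 53.2). For all members together, the ratios were thus nearer 1 within either class than over all cells. In FT and in Sham, cells under 2% had far fewer members' UMIs per 10000 than the other cells. In dorDG cells under 2%, complex II was lower in FT (2.39 ± 0.776) than in Sham (2.72 ± 0.292), within the spread of the replicates.

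FT against Sham was tested gene by gene with edgeR's quasi-likelihood test on the summed counts of all dorDG cells. A gene was called at an adjusted p of at most 0.2 and a log2 fold change of at least 0.32 in size. Of the 82 members, 69 passed the filter on low counts (a mean of at least 0.5 UMIs per 10000). Among the 13 that did not were Sdha, the flavoprotein subunit of complex II, Ndufs1, the largest core subunit of complex I, Uqcrfs1, the Rieske iron-sulfur protein of complex III, and the isoforms Cox4i2, Cox6a2 and Cox6b2. 25 of the 69 were called, all higher in FT, where 28.6% of all 4274 genes were called and 12.4% were called higher in FT. An unadjusted p under 0.05 by edgeR was found in 20 of the 69 (29%), near the 25.4% of all genes. The called Cox6a1, Uqcrq, Atp5a1, Atp5d and Atp5g2 had unadjusted edgeR p values of 0.0502 to 0.0565. 66 of the 69 had a positive log2 fold change, with a median of 0.54 against −0.04 over all genes tested. With library totals in place of the TMM scaling, the median of all genes moved to −0.12, the share of the calls that were higher went from 43.6% to 27.9%, and 12 members were called. Of all 4274 genes, 1133 were called with library totals, 316 of them higher in FT.

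By complex, 9 of 33 tested members of complex I, 0 of 3 of complex II, 1 of 5 of complex III, 4 of 12 of complex IV, 10 of 15 of complex V and cytochrome c were called. The medians were 0.50, 0.39, 0.41, 0.55 and 0.62 for complexes I to V. In 5 members (Ndufa11, Ndufb11, Cox6a1, Atp5b and Atp5g2) every FT replicate was above every Sham replicate, which was the case in 4.12% of all genes tested. These 5 were picked out on their values.

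In complex V, Atp5i was 2.9, 2.6, 3.31 and 3.02 UMIs per 10000 in FT replicates 1, 2, 4 and 5, and 1.7, 1.12, 0.693, 2.68 and 2.13 in Sham replicates 1 to 5. Sham replicate 4 lay within the FT range and the other 4 Sham replicates below it. Its log2 fold change was 0.92 ± 0.32 (SE), with an adjusted p of 0.166 by edgeR. Atp5b, the catalytic β subunit and the most abundant member of complex V in dorDG, was 4.74, 4.76, 5.5 and 4.97 in FT and 3.57, 3.49, 1.88, 4.16 and 3.7 in Sham (log2 fold change 0.65 ± 0.26, edgeR adjusted p 0.177), with no overlap between the groups. Atp5a1, the α subunit beside it in the catalytic head, was at the low end of the called members with 0.54 ± 0.25 (edgeR adjusted p 0.196). Atp5d and Atp5e, subunits of the central stalk, were called as well, with 0.54 ± 0.25 and 0.72 ± 0.30. Of the c subunits that form the rotor ring, Atp5g2 was called (0.58 ± 0.27, edgeR adjusted p 0.196), while Atp5g3 (0.66 ± 0.32) and Atp5g1 (0.31 ± 0.29) were not.

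In complex IV, the electron acceptor for cytochrome c, Cox4i1 was 6.5, 6.28, 7.38 and 6.77 in FT and 4.14, 4.75, 3.1, 6.59 and 4.68 in Sham (0.61 ± 0.26, edgeR adjusted p 0.182), with Sham replicate 4 inside the FT range. Cox6a1, the most abundant member by its mean over the dorDG replicates, had the lowest fold change of the called members, 0.49 ± 0.24 (edgeR adjusted p 0.2), and did not overlap (6.24 to 7.26 in FT, 3.55 to 5.77 in Sham). Cox7a2 had the second highest, 0.86 ± 0.38 (edgeR adjusted p 0.186). A second row, Cox7a2.1, carries the same name, and both are taken up again below. Cox7a2l, known for joining complexes III and IV into supercomplexes, was called with 0.54 ± 0.23. Cox6b1, Cox6c, Cox8a and Cox7b were not called (0.50, 0.58, 0.59 and 0.36).

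In complex I, Ndufa2 (0.79 ± 0.30), Ndufa11 (0.74 ± 0.22) and Ndufb11 (0.61 ± 0.23), accessory subunits, were among the called members, with edgeR adjusted p values of 0.17, 0.155 and 0.17. Ndufa11 was 0.992 to 1.21 in FT and 0.518 to 0.986 in Sham. Ndufc1 was the lowest called member of complex I, at 0.50 ± 0.23. Ndufs7, which carries the last iron-sulfur cluster before ubiquinone, was called (0.67 ± 0.25), whereas Ndufv1, which binds NADH, and its partner Ndufv2 were not (0.49 ± 0.24 and 0.48 ± 0.29, edgeR adjusted p 0.203 and 0.261). Ndufa4, counted here by its symbol although it is now assigned to complex IV, was 4.45 to 5.36 in FT and 1.55 to 6.74 in Sham (0.50 ± 0.35, not called). Several members of complexes I to III stood near 0: Ndufa9 −0.18 ± 0.26, Ndufa10 −0.16 ± 0.20, Ndufs4 −0.01 ± 0.24, Ndufv3 0.02 ± 0.28, Sdhb 0.02 ± 0.20, Uqcrc2 0.11 ± 0.22 and Cyc1 0.19 ± 0.32.

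In complex III, Uqcrq, its most abundant member in dorDG, was called (0.58 ± 0.28, edgeR adjusted p 0.2), at 2.91 to 3.61 in FT and 1.26 to 3.52 in Sham, while the hinge protein gene Uqcrh (0.46 ± 0.25) was not. In complex II, Sdhc and Sdhd, the membrane anchors, had 0.40 ± 0.21 and 0.39 ± 0.27, and Sdhb, the iron-sulfur subunit, was 1.01, 1.01, 1.33 and 1.34 in FT and 1.3, 1.05, 1.24, 1.27 and 1.24 in Sham. Cycs was called with 0.65 ± 0.28 (edgeR adjusted p 0.182), at 2.28 to 3.18 in FT and 0.877 to 2.45 in Sham.

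The called members sat close to the threshold, with adjusted p values of 0.155 to 0.2, and their number depended on single libraries. Leaving out a replicate left 2 called without FT replicate 1 (11.1% of all genes called in that fit), 12 without FT replicate 2 (22.8%), 41 without Sham replicate 2 (46.8%), 59 without Sham replicate 4 (43%), and 0 without FT replicate 4 or 5 or Sham replicate 1, 3 or 5. With the replicate number as a block, 0 members and 0% of genes were called, and with no filter on low counts 0 members and 1.09% of genes. Within cells of at least 2% ribosomal UMIs, 0 of 71 members were called by edgeR, 0 had an unadjusted p under 0.05, and the median was 0.10. Within cells under 2%, 0 of 42 were called, 5 had an unadjusted p under 0.05, and the median was 0.41. For these cell classes the counts are not set against all genes. The part of the neuronal and mural markers in the dorDG result was not tested.

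In venDG, 0 of 70 members tested were called by edgeR, 1 by DESeq2 and 0 by limma, 12 had an unadjusted p under 0.05 (5.79% of all genes did), and 0% of all 4079 genes were called, with 0% called higher in FT. The DESeq2 count is given without the share of all genes. 68 of the 70 had a positive fold change, with a median of 0.28 against −0.01 over all genes. In 4 members (Ndufa11, Cox7b, Atp5d and Atp5j2, picked out on their values) every FT replicate was above every Sham replicate, against 0.49% of all genes. Ndufa11 was 1.01, 1.17, 1.06, 1.18 and 1.49 in FT replicates 1 to 5 and 0.763, 0.664, 0.681, 0.933 and 0.717 in Sham, a log2 fold change of 0.63 ± 0.18 with an edgeR adjusted p of 0.764. Atp5j2, the f subunit of ATP synthase, had 0.50 ± 0.19 and Cox7b 0.45 ± 0.18, with the same adjusted p of 0.764 by edgeR. The only members tested that were below 0 were Atp5h (−0.61 ± 0.25) and Cox7a2 (−0.54 ± 0.29), both with a like-named partner row. Within cells of at least 2% ribosomal UMIs the median was 0.16, with 5 of 72 members at an unadjusted p under 0.05.

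**Figure D2:**
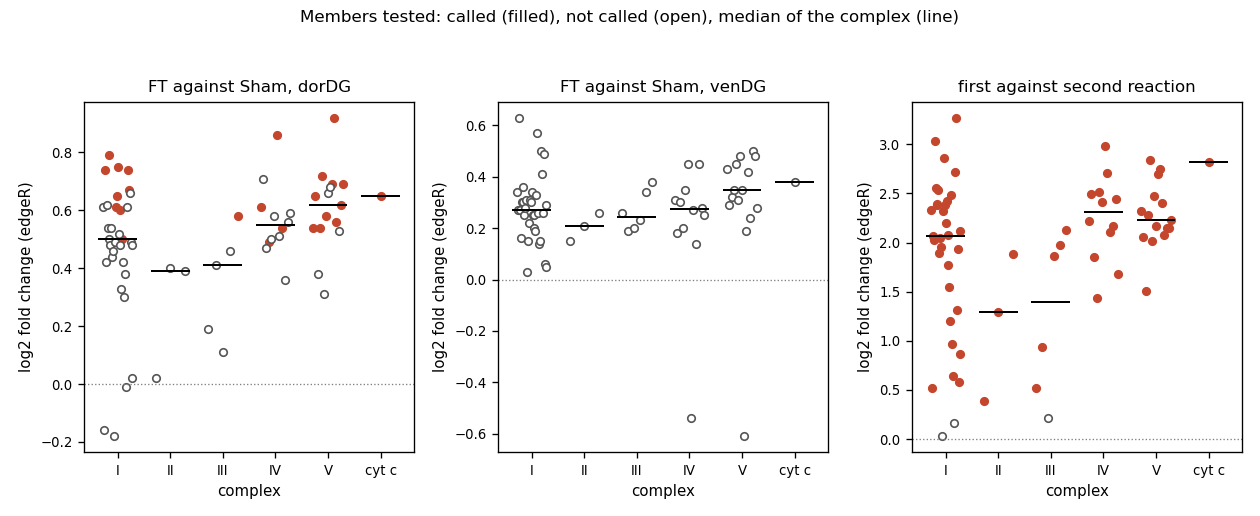
Log2 fold change (edgeR, vertical axis, a scale of its own in each panel) of each member tested, by complex, for FT against Sham in dorDG and in venDG and for the first against the second reaction of a replicate. Filled points were called (25 of 69, 0 of 70 and 67 of 70) and lines mark the medians of each complex.

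Other genes of energy metabolism were taken as lists. In dorDG FT against Sham, where 12.4% of all genes were called higher, 2 of 11 mitochondrially encoded subunits were (Mt-nd4l and Mt-nd6, subunits of complex I), 1 of 6 tested assembly factors (Pet100, of complex IV), 1 of 7 genes of the tricarboxylic acid cycle (Suclg1), 5 of 14 of glycolysis (Aldoa, Aldoc, Eno1, Ldha and Pgk1), and 4 of 7 carriers and channels of the mitochondrial membranes (Slc25a3, which imports phosphate, Slc25a4 and Slc25a5, which exchange ADP and ATP, and Vdac3). The list of carriers and channels also counts Atpif1, an inhibitor of ATP synthase that is neither, which was not called. The only biogenesis regulator that passed the filter was not called. No gene of these lists was called lower. The list medians were 0.42, 0.49, −0.03, 0.41 and 0.55 in that order, against −0.04 over all genes. In venDG, 0 genes of these lists were called by edgeR and 6 had an unadjusted p under 0.05, with medians of −0.06, 0.25, 0.01, 0.31 and 0.31.

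The regions were compared in 1 model over the 4 groups. In Sham, 0 of 69 members were called between dorDG and venDG by edgeR, 0 by DESeq2 and 0 had an unadjusted p under 0.05 (11.2% of all genes did), where 1.83% of 4161 genes were called. The lowest p values belonged to Ndufv1 (−0.44 ± 0.21), Atp5h (−0.57 ± 0.30) and Ndufa8 (−0.48 ± 0.26), with edgeR adjusted p values of 0.445 or more. 64 of the 69 were lower in dorDG, with a median of −0.18 against 0.00 over all genes, and within cells of at least 2% ribosomal UMIs the median was −0.02. With same-numbered replicates blocked, 12.1% of genes were called in Sham and 1 member, Atp5o, the stalk subunit also called OSCP (−0.39 ± 0.15, edgeR adjusted p 0.186, lower in dorDG). In FT, 0 members were called by edgeR and 0 by DESeq2, 2 had an unadjusted p under 0.05 (Cox7a2 0.95 ± 0.36 and Atp5h 0.69 ± 0.30, edgeR adjusted p 1), the median was −0.02, and 0% of genes were called (0.0481% with the block, again with 0 members).

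The test of the difference between the regions' FT effects called 0 members and 0% of 4161 genes with edgeR, and 0 members with DESeq2, with 2 members and 9.47% of all genes at an unadjusted p under 0.05. 58 of the 69 were positive, that is, further above Sham in dorDG than in venDG, with a median of 0.19. Within cells of at least 2% ribosomal UMIs, 23 of 71 were positive and the median was −0.06. With the replicate block, 10.3% of genes were called and 3 members, Cox7a2 (1.31 ± 0.40), Atp5h (1.11 ± 0.37) and Atp5hl1 (0.56 ± 0.20), with edgeR adjusted p values of 0.159, 0.178 and 0.192.

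These 3 members belong to pairs of rows with like names. They are taken as copies from their symbols alone, their loci were not compared, and whether reads are split between them was not tested. Cox7a2 has a second row, Cox7a2.1, and Atp5h, the d subunit of the ATP synthase stalk, has Atp5hl1. The share of Cox7a2 in the pair ran from 9.96% to 32.2% over the 21 reactions with at least 50 UMIs of the pair (median 25.4%), and that of Atp5h from 11.3% to 39.1% over 19 reactions (median 26.8%). Both shares were low in the same libraries, venDG FT replicates 2, 3 and 4 and dorDG Sham replicates 3 and 5. Cox7a2 itself was 0.623, 0.584 and 0.654 UMIs per 10000 in those 3 venDG FT replicates and 1.23 and 1.35 in the other two, and 0.367 and 0.463 in those 2 dorDG Sham replicates and 1.21, 1.47 and 1.23 in the other three. Summed over the pair, Cox7a2 was 5.98 ± 0.833 and 4.14 ± 1.14 in dorDG FT and Sham, and 4.97 ± 0.808 and 4.59 ± 1.27 in venDG. With the pairs summed, an alternative chosen after the data were seen, the interaction of Cox7a2 was 0.46 ± 0.32 (edgeR adjusted p 0.678) and that of Atp5h 0.66 ± 0.31 (0.516). With the replicate block as well, Cox7a2 had 0.53 ± 0.20 (edgeR adjusted p 0.202, not called) and Atp5h 0.69 ± 0.21 (0.173, called). In venDG the negative fold changes became 0.10 ± 0.21 for Cox7a2 and −0.01 ± 0.19 for Atp5h. In dorDG both summed pairs were called, with 0.60 ± 0.28 and 0.69 ± 0.28, and 27 of 66 members in all, a count given without the share of all genes.

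**Figure D3:**
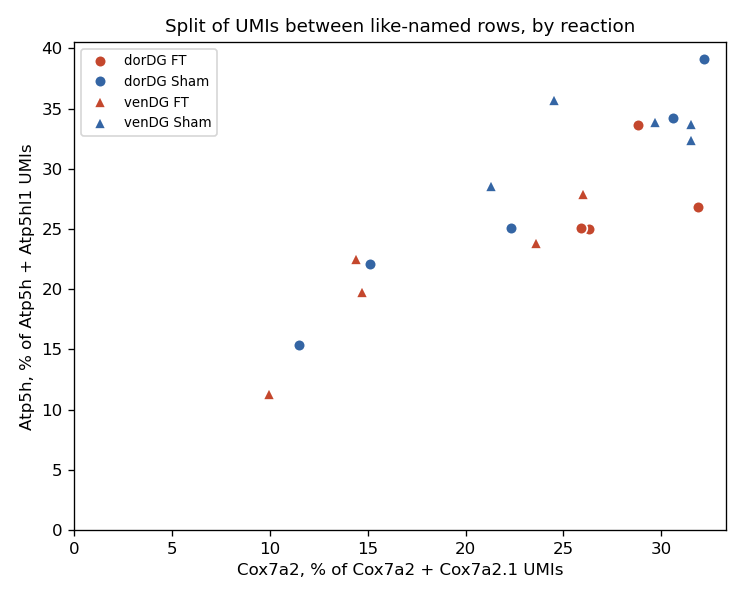
Share of Cox7a2 in the UMIs of Cox7a2 and Cox7a2.1 (horizontal, %) against the share of Atp5h in the UMIs of Atp5h and Atp5hl1 (vertical, %), 1 point per reaction with at least 50 UMIs of both pairs. The shares run from 9.96% to 32.2% and from 11.3% to 39.1%, and the lowest points are venDG FT and dorDG Sham reactions.

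8 replicates (FT and Sham replicates 1 and 2 of both regions) had been run as a pair of reactions, and all members together differed between the reactions in each of the 8. First and second follow the order of the reactions' sample names in the labels and do not stand for a known order of runs. In the first reaction the members made up 158 ± 23 UMIs per 10000 (114 to 182) and in the second 57.7 ± 9.67 (46.4 to 75.2). The first was 1.86 to 3.83 times the second, with a mean ratio of 2.8. By complex the mean ratio was 2.58 for I, 1.45 for II, 1.93 for III, 3.15 for IV, 3.39 for V and 5.28 for cytochrome c, each higher in the first reaction in 8 of 8 replicates. Ribosomal protein genes moved the same way, at 5.09% to 5.98% of UMIs in first and 0.642% to 1.53% in second reactions, and 4.08% to 15.5% against 78.3% to 95.9% of the cells had under 2%. The means of the single reactions of the other replicates lay between, and the mean FT and Sham values within each kind of reaction in dorDG were 168 and 135 in first, 60 and 55.8 in second and 160 and 119 in single reactions (2 or 3 replicates each, untested). In venDG they were 169 and 159, 50.4 and 64.4, and 160 and 120.

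Tested with the replicate as a block, 67 of 70 members were called between the reactions, all higher in the first, where 84.1% of all 4378 genes were called and 39.9% were called higher in the first. The median was 2.13 over the members and −0.13 over all genes. With library totals in place of TMM, an alternative chosen after the data were seen, all genes had a median of −0.60, a shift of 0.47, the share of the calls that were higher in the first reaction went from 47.5% to 37.3%, and 62 members were called higher and 1 lower (Ndufa9), with a median of 1.65. Of all 4378 genes, 3877 were called with library totals, 1447 of them higher in the first reaction.

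The members differed among themselves. Medians were 2.07, 1.29, 1.40, 2.32 and 2.23 for complexes I to V, and 2.82 ± 0.17 for Cycs. Ndufs6, a zinc-binding subunit of complex I, was highest at 3.27 ± 0.26 (1.06 ± 0.249 UMIs per 10000 in first and 0.147 ± 0.0861 in second reactions), followed by Ndufa13 (3.03 ± 0.24) and Cox7a2 (2.98 ± 0.26). At the other end, Ndufa9 had 0.03 ± 0.23, Ndufs4, an accessory subunit needed for assembly of the NADH-binding arm, 0.16 ± 0.20 and Uqcrc2, a core protein of complex III, 0.21 ± 0.19, and none of the 3 was called. Sdhb (0.39 ± 0.17, edgeR adjusted p 0.0539), Ndufa10 (0.52 ± 0.17) and Cyc1 (0.52 ± 0.21) were the lowest called. Sdhb was 1.08 ± 0.201 UMIs per 10000 in first and 1.15 ± 0.251 in second reactions, and as a share of UMIs it was higher in the first in 3 of 8 replicates, so that its positive fold change rests on the TMM scaling (−0.08 with library totals). Also with library totals, Ndufa9 (−0.43), Ndufs4 (−0.30) and Uqcrc2 (−0.25) were below 0.

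The 8 members lowest and the 8 highest between reactions are set beside their FT against Sham log2 fold changes in dorDG, which come in part from the same libraries and are not independent of them. Ndufa9, Ndufs4, Uqcrc2, Sdhb, Ndufa10, Cyc1, Ndufv1 and Ndufs3, with 0.03, 0.16, 0.21, 0.39, 0.52, 0.52, 0.58 and 0.64 between reactions, had −0.18, −0.01, 0.11, 0.02, −0.16, 0.19, 0.49 and 0.38 between FT and Sham. Ndufs6, Ndufa13, Cox7a2, Ndufb11, Atp5e, Cycs, Atp5hl1 and Ndufs5, with 3.27, 3.03, 2.98, 2.86, 2.84, 2.82, 2.75 and 2.72, had 0.74, 0.62, 0.86, 0.61, 0.72, 0.65, 0.69 and 0.61.

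The authors' annotation gave 12 dorDG cell types. Its names were checked against marker lists. Cells named Mossy held 34.9 UMIs per 10000 of 8 mural markers (2.86 or less in the other types), among them Vtn 7.89, Tagln 6.79 and Pdgfrb 3.23, and of the 4 mossy cell markers 0 UMIs of Calb2 and Drd2, Calcrl at 1.4 (2.39 in OPC) and Gal at 0.212 (10 UMIs, the highest of the 12 types). Cells named InhibNeuron held Gad1 at 0.296, Gad2 at 0.217 and Slc32a1 at 0, but Slc17a7, the glutamate transporter of excitatory neurons, at 3.21 and Nrgn at 4.38. Cells named Granule held 817 UMIs per 10000 of 2 red blood cell genes (18.6 or less elsewhere) and 1.07 of the 4 granule cell markers. Cells named BergGlia held 77 UMIs per 10000 of 6 astrocyte markers, against 95.9 in AstroSub1. The names are used below only as the annotation gives them. Types were clustered on these same genes, so their levels are a description.

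Summed over cells, the members made up 319 UMIs per 10000 in BergGlia (43 cells, median 1025 UMIs per cell), 193 in OPC (oligodendrocyte precursors), 175 in AstroSub1, 172 in Oligodend1, 151 in Oligodend2, 140 in Endothelial and in Mossy, 109 in ExcitNeuron, 96 in Microglia2, 95.9 in InhibNeuron, 87.4 in Granule and 87.2 in Microglia1. Over replicates with at least 5 cells, BergGlia was 334 ± 113 (n = 4, 167 to 422), OPC 188 ± 44.9 (n = 7), AstroSub1 179 ± 41.2 (n = 8), Oligodend1 171 ± 32.1 (n = 9) and Microglia1 86.4 ± 9.73 (n = 9). Each neighbouring pair in this order overlapped in its replicates. 60 of the 82 members had their highest level in BergGlia, a type of few and shallow cells. These sums join FT and Sham, whose share of the cells differed by type (27 of 147 cells were FT in InhibNeuron and 49 of 72 in Mossy). The level in FT and Sham cells apart was 388 and 228 in BergGlia, 211 and 167 in OPC, 157 and 74.5 in InhibNeuron, 148 and 122 in Mossy and 88.5 and 86.1 in Microglia1.

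The order depended on the cells' ribosomal class. Among cells of at least 2% ribosomal UMIs, BergGlia (395) was followed by AstroSub1 (264), ExcitNeuron, InhibNeuron (222), OPC (217), Oligodend1 (204) and Granule (196), and Microglia1 (88.9) was lowest. Among cells under 2%, all 12 types lay between 42.3 and 82.1. Of the cells, 80% in ExcitNeuron, 79.6% in InhibNeuron and 79.8% in Granule were under 2%, against 7.78% in Endothelial and 9.35% in Microglia1. These types (ExcitNeuron, InhibNeuron and Granule) ranked lower over all cells than among cells of at least 2%.

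**Figure D4:**
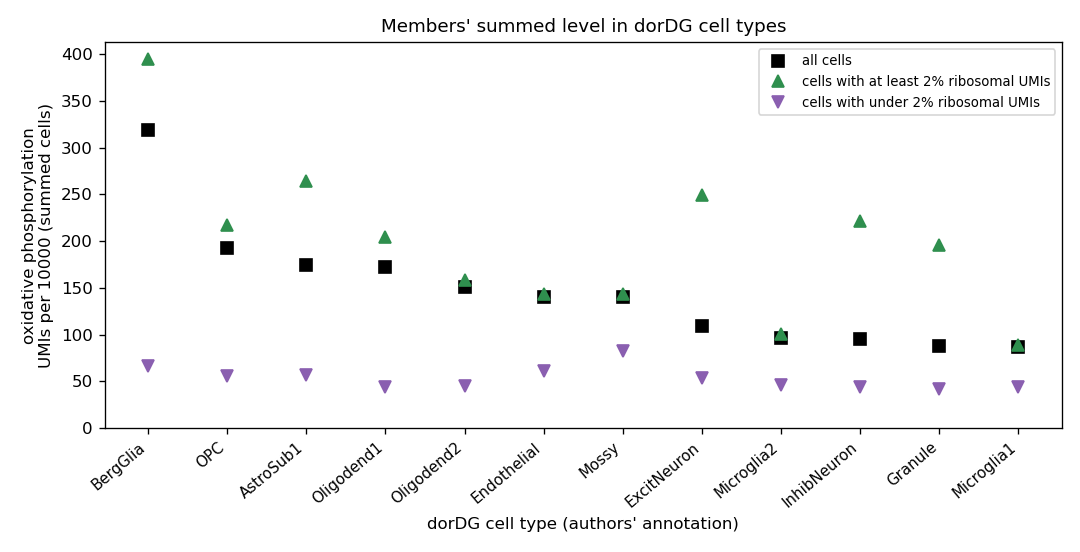
UMIs per 10000 of all members (vertical) in the 12 dorDG cell types of the authors' annotation, over all cells (squares) and over cells of at least (up triangles) and under 2% ribosomal UMIs (down triangles). The first run from 87.2 to 319, the second from 88.9 to 395 and the last from 42.3 to 82.1.

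Complex I exceeded complex IV in AstroSub1 (60.9 and 46.5 UMIs per 10000), OPC (67.5 and 55.6) and InhibNeuron (36.7 and 26.9), while complex IV was the larger in Mossy (40.1 and 49.5). Cycs was 6.03 in BergGlia, 4.6 in Mossy and 1.07 to 2.8 in the other 10 types, and over replicates it was 4.65 ± 1.33 in Mossy (n = 7, 2.47 to 6.36) and 2.73 ± 0.639 in Microglia1 (n = 9, 1.83 to 3.62), so that these 2 ranges overlapped.

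Cox4i2, the alternative isoform of subunit 4 that is known to rise in low oxygen in some tissues, was found at 3.65 UMIs per 10000 in Mossy (172 of its 211 UMIs), 0.266 in Endothelial and 0.0995 or less elsewhere. In Mossy it was present in all 7 replicates with at least 5 cells, at 3.88 ± 1.87 (0.948 to 5.69), above the highest replicate of every other type (0.789, in Endothelial). It was at 0 UMIs in AstroSub1, which allows up to 0.0968 per 10000, and in BergGlia, which allows up to 0.603. Cox4i1 was lowest in InhibNeuron (3.08), highest in BergGlia and 6.64 in Mossy. Over whole replicates, Cox4i2 was 0.316 to 0.689 in dorDG FT and 0.0204 to 0.289 in 4 dorDG Sham replicates, with Sham replicate 4 inside the FT range, below the filter on its mean, and the share of Mossy cells was 7.69% to 9.16% in FT and 0% to 5.93% in Sham.

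**Figure D5:**
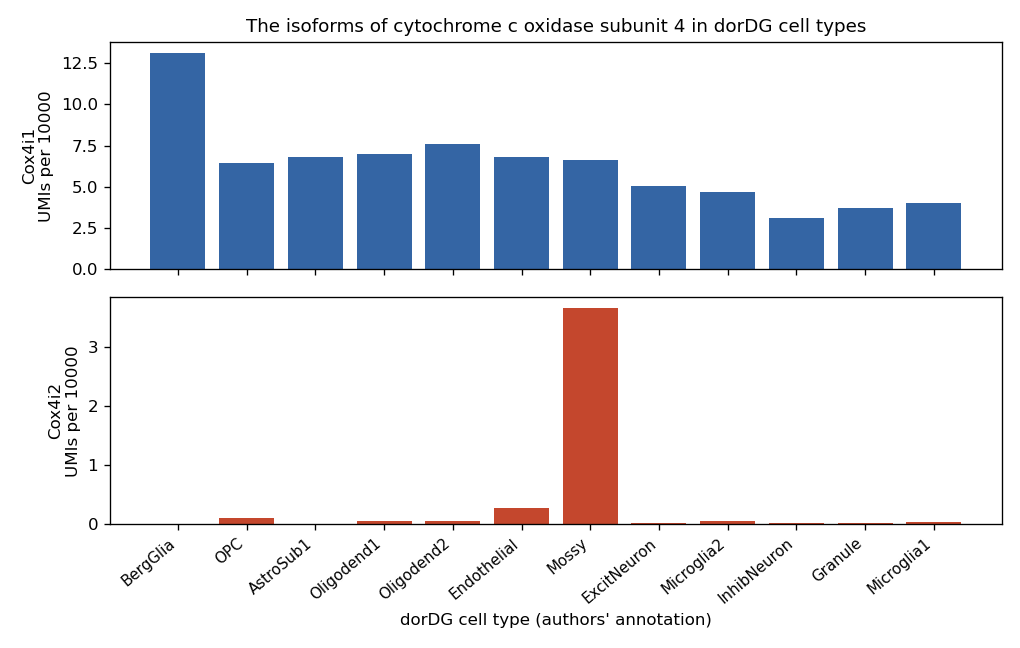
UMIs per 10000 of Cox4i1 (top) and Cox4i2 (bottom) over the summed cells of each dorDG type of the authors' annotation. Cox4i1 is found in every type, from 3.08 upward, and Cox4i2 is at 3.65 in Mossy and at 0.266 or less elsewhere.

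Cox6b2, the isoform known from testis, was at 0.537 in OPC (27 UMIs, found in all 7 replicates, 0.123 to 1.99), at 0.297 in Mossy and 0.219 in Granule, and at 0 UMIs in Oligodend1 and Oligodend2, which allows up to 0.0465 and 0.0459. The replicate ranges of OPC, Granule and Mossy overlapped. Cox6b1 was 1.63 to 5.43 in all types. Cox6a2, the heart and muscle isoform, had 3 UMIs in all dorDG cells, too few to compare. Of the 3 genes for the c subunit of ATP synthase, Atp5g3 was 7.64 in BergGlia and 3.03 in AstroSub1, and 0.529 to 2.07 in the other types, whereas Atp5g2 was 6.63 and 2.13 and Atp5g1 3.01 and 1.65. In AstroSub1, Atp5g3 was 3.42 ± 1.32 (n = 8, 1.04 to 4.77), overlapping OPC at 1.94 ± 0.678 (n = 7, 1.16 to 3.06). Atp5i and Uqcrq showed the same order at their top, with 8.44 and 10.9 in BergGlia and 5.16 and 4.49 in AstroSub1. In complex II, Sdhb was highest in AstroSub1 (2.29) and Sdhc in BergGlia (3.62).

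FT was tested against Sham within each of the 12 types on replicate sums, with replicates of at least 5 cells, or of at least 1 cell in BergGlia, ExcitNeuron and InhibNeuron. Members were called in 1 type, Oligodend1, where 2 of 70 were higher in FT and 6.15% of 3693 genes were called. Ndufs4 was 2.31 UMIs per 10000 in FT (2.16 to 2.59) and 1.21 in Sham (0.822 to 1.52), without overlap, a log2 fold change of 1.02 ± 0.33 with an edgeR adjusted p of 0.158. Cox7a2 was 2.84 (2.16 to 3.99) and 1.38 (0.591 to 2.41), 1.04 ± 0.38 with an edgeR adjusted p of 0.188. With the like-named rows summed, Cox7a2 had 0.55 ± 0.26 (edgeR adjusted p 0.312) and was no longer called. Of the calls in Oligodend1, 56.8% were higher in FT, 49.7% with RLE scaling and 38.5% with library totals. The members' median was 0.38, and 0.02 within cells of at least 2% ribosomal UMIs, where 0 of 71 were called. 28.1% of Oligodend1 cells in FT and 64.5% in Sham were under 2%. Leaving out single replicates gave 0 called members without FT replicate 1, 4 or 5 or Sham replicate 2 or 3, 12 without FT replicate 2 (15.6% of all genes), 1 without Sham replicate 1 or 5 and 6 without Sham replicate 4 (8.99%).

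In the other 11 types 0 members were called by edgeR. The share of all genes called was 0.0232% in AstroSub1, 0.162% in ExcitNeuron, 0.0581% in Microglia2 and 0.029% in Oligodend2, and 0% in BergGlia, Endothelial, Granule, InhibNeuron, Microglia1, Mossy and OPC. The members at an unadjusted p under 0.05 numbered 29 of 72 in InhibNeuron, where 16.4% of all genes had such a p, and 0 to 6 in each of the other 10, where 2.72% to 8.43% of all genes did. In Oligodend1 it was 13 of 70 and 15.4%. limma called 0 members in each of the 12 types and DESeq2 called 23 in InhibNeuron (6.61% of all genes), 3 in Oligodend1 (5.28%) and 0 in the others.

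InhibNeuron had the highest member median, 1.24 against −0.04 over all genes, with 1.14 for complex I and 1.41 for complex V. Atp5d was 1.93 in FT (1.46 to 2.5) and 0.598 in Sham (0.418 to 1.05), 1.78 ± 0.39 with an edgeR adjusted p of 0.21. Cox4i1 (1.51 ± 0.45) and Atp5b (1.29 ± 0.41) had adjusted p values of 0.227 and 0.233 by edgeR. This type held 27 FT and 120 Sham cells, of which 37% and 89.2% were under 2% ribosomal UMIs, and within cells of at least 2% the median was −0.08. Without Sham replicate 4, 58 members and 29.5% of all genes were called, without FT replicate 1, 25 and 16.2%, and with same-numbered replicates blocked, 49 and 16.7%.

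The member medians of the remaining types were 0.81 in BergGlia, 0.73 in Granule, 0.60 in Microglia2, 0.48 in AstroSub1, 0.42 in OPC, 0.30 in Mossy, 0.25 in ExcitNeuron, 0.17 in Oligodend2, 0.11 in Endothelial and 0.03 in Microglia1, without a called member. The lowest unadjusted p values belonged to Ndufc1 in AstroSub1 (1.52 ± 0.51, with 2.39 to 3.56 in FT and 0.741 to 1.36 in Sham), Atp5o in Endothelial (0.90 ± 0.34), Cox7a2 and Atp5i in OPC (1.15 ± 0.49 and 0.88 ± 0.42) and Ndufb11 in Mossy (1.16 ± 0.47), with edgeR adjusted p values of 0.688, 0.823, 0.936 and 0.999 for AstroSub1, Endothelial, OPC and Mossy. In BergGlia, Ndufb11 was 3.14 to 14.7 in FT and 0 to 1.65 in Sham, in few cells (25 and 18), and had an edgeR adjusted p of 0.602. In Granule it was Ndufa7 (1.63 ± 0.65, edgeR adjusted p 0.549), in Microglia2 Ndufa1 (1.70 ± 0.72, 0.967), in Oligodend2 Ndufs7 (0.84 ± 0.40, 0.999) and in ExcitNeuron Ndufv3, which was lower in FT (−1.66 ± 0.80, 0.996). Whether the FT effect differed between types was not tested.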

How the data were processed

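Per the deposited tables, values were raw UMI counts per gene and cell, made by the authors with Cell Ranger v2.1.0, the submitters naming rn5 as build and Seurat 3 for later steps. The counts were used as deposited, with cell types from the authors' annotation and no doublet caller. 170 venDG columns with a second suffix, 167 of them repeating a barcode of the same reaction, were left out. Counts were summed per replicate over 108 libraries in 27 reactions and tested with edgeR 4.0.16 (R 4.3.3, TMM, quasi-likelihood, Benjamini-Hochberg over all genes tested, genes of at least 0.5 UMIs per 10000 on average). DESeq2 1.42.0 and limma 3.58.1 (log2 of UMIs per 10000 plus 0.01) were alternatives, beside RLE scaling, library totals, no filter, cell classes and left-out replicates. The model was tested on simulated data for FT against Sham: it recovered 73% of genes changed 2-fold and 100% changed 4-fold in dorDG (4274 genes), 91% and 100% in venDG (4079 genes) and 35% and 83% in Oligodend1 (3693 genes), with 19.2%, 16.2% and 15.1% of the simulated calls false. In the simulation each gene varied on its own around 1 mean profile, with as many genes raised as lowered. Shared differences between libraries, such as in cell classes, were not simulated, so these shares need not hold for the real libraries. The 36 replicate pairs differed by more than sampling noise (chi-square per degree of freedom 2.97 to 17.1). The methods of the study describe the replicates as pools of separate animals, so p-values measure the spread between sums over pools, not animals. That spread includes the mix of reactions and of cell classes, since replicates 1 and 2 summed 2 reactions each and the others held 1.

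The members and lists were chosen with earlier results of these data known. Genes are named where they had the 3 highest or lowest fold changes among called members or, with none called, the 3 lowest p values, and for abundance, isoforms, mention by the study, the 5 highest ratios of the top to the median type, and complex II and the cytochromes; others were named after their values were seen. As a check of pairing, deviations from group means correlated between the same-numbered dorDG and venDG replicates at 0.113 to 0.395 in FT (n = 4) and 0.21 to 0.564 in Sham (n = 5), so region comparisons are also given with the replicate number as a block.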

Additional observations from a re-analysis of the deposited data

Results flagged for a closer look

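In 16 of 236 groups of 4 or 5 replicates examined, where chance sets apart about 1 in 20, the highest or lowest replicate stood apart from the others of its group. Among members above the filter these were, in UMIs per 10000, Ndufc1 in venDG Sham replicate 1 (1.5), Sdhb in dorDG Sham replicate 2 (1.05), Uqcrc1 in dorDG FT replicate 1 (1.05), Atp5d in venDG FT replicate 2 (2.39), Atp5l in dorDG FT replicate 4 (4.49), Ndufs4 in venDG FT replicate 5 (1.64), Uqcrh in venDG FT replicate 3 (4.61) and in venDG Sham replicate 3 (1.73), and Ndufa4 in dorDG FT replicate 4 (5.36). Among rows below the filter they were Ndufv3-ps1 in dorDG Sham replicate 4 (0.756), Cox6b2 in dorDG FT replicate 1 (0.0671), Cox6a2 in dorDG FT replicate 5 (0.0171), dorDG Sham replicate 2 (0.0346) and venDG Sham replicate 2 (0.0147), and Cox6c-ps1 in dorDG FT replicate 5 (0.0171) and dorDG Sham replicate 1 (0.00904), in rows of few UMIs.

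3 members had an FT effect that differed between the regions by edgeR's test of the interaction with the replicate block: Cox7a2 (log2 difference 1.31), Atp5h (1.11) and Atp5hl1 (0.56). They are 3 of 69 members, and 10.3% of all genes were called in that fit, so the count is below the share of all genes. Without the block 0 members were called. For the first 2, the share in the like-named pair varied between libraries, and whether reads are split between the rows was not tested. With the rows summed and the block kept, Atp5h alone was called (0.69).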

How the results depend on the processing

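For FT against Sham in dorDG (25 of 69 members called), DESeq2 called 47 (43.3% of all genes), library totals 12 (1133 of 4274 genes), and no filter on low counts, cells of at least 2% ribosomal UMIs, cells under 2% and the replicate block 0 each, with a range of 0 to 59 when single replicates were left out. In venDG DESeq2 called 1 member, and leaving out replicates called 0 each. The replicate block called 1 member between the regions in Sham and 3 in the interaction, and 1 there with like-named rows summed. The reactions' sample names in the labels follow the replicate number over FT, Sham and both regions. Joint processing of FT and Sham is not stated for these single-cell samples. Same-numbered FT and Sham samples correlated at −0.249 to 0.393 in dorDG (3 of 4 over 0.1) and −0.201 to 0.281 in venDG (4 of 5). Differently numbered ones correlated at −0.384 to 0.38 (4 of 16 over 0.1) and −0.401 to 0.361 (6 of 20). Whether the numbers pair FT with Sham is not settled by these values, so both fits are given. The block called 49 members in InhibNeuron and 4 in Oligodend1. Beside these and the count in dorDG, it changed no other call. In InhibNeuron (0 called) DESeq2 called 23 members (share of all genes given above), RLE 1 (26 of 4657 genes) and library totals 1 (22 genes). No filter called 16 and the table without mitochondrial and ribosomal protein genes 3, with 0 to 58 over left-out replicates. In Oligodend1 (2 called) RLE (191 of 3693 genes), library totals (156 genes), the table without mitochondrial and ribosomal protein genes and summed rows called 1 member each. No filter, limma and cells of at least 2% called 0 each there, with 0 to 12 over left-out replicates. Member counts given here without a count or share of all genes do not show whether the members differ from other genes. The members' median moved to 1.65 between reactions, 0.46 in Granule and 0.29 in Microglia2 with library totals, and to 0.32 in BergGlia with RLE.

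In cells under 2% ribosomal UMIs, the FT minus Sham difference in dorDG was 7.84 UMIs per 10000 for all members, 2.06 for complex I, −0.333 for complex II (reversed), 0.632 for III, 3.22 for IV, 2.18 for V and 0.0895 for cytochrome c, and in venDG 1.54 for IV and 2.75 for V. In dorDG cells of at least 2% it was 0.779 for III and 4.89 for IV. The members' mean level in cells of at least and under 2% was 267 and 58.9 in AstroSub1, 241 and 39.8 in Granule, 228 and 43.4 in InhibNeuron and 203 and 44.4 in Oligodend1, and in cells under 2% 54.2 in Endothelial, 47.2 in Microglia2, 54.7 in OPC and 41.4 in Oligodend2. It was 96.8 in Microglia1 without mitochondrial and ribosomal protein genes and 132 in Oligodend1 as a mean over cells. The other 579 values kept their direction and side of the threshold or moved by less than the spread. The cause of these changes was not tested. The region and interaction fits were not repeated without single replicates. Rows under the filter, such as Cox4i2 and Cox6b2, are limited by depth.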

Other observations

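Between the first and the second reaction of a replicate, the other lists of energy metabolism are given beside all genes, of which 84.1% were called and 39.9% were called higher in the first reaction. All 11 mitochondrially encoded subunits tested were called higher in the first reaction, with a median of 1.06, below the 2.13 of the nuclear-encoded members. Of glycolysis 12 of 14 genes were called higher (median 1.78), and of the list of mitochondrial carriers and channels, with Atpif1 counted in it, 7 of 7 (median 1.98). Of the tricarboxylic acid cycle 4 of 10 were called higher (Mdh2, Pdhb, Suclg1 and Suclg2) and 1 lower (Idh3g), with a median of 0.19, a share called higher near that of all genes. Of the assembly factors Cox14, Cox17 and Uqcc2 were called higher and Nubpl lower.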
